A study of Mus musculus with 16 samples.

Results

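The difference in the response to LPS between macrophages labelled fld and control macrophages was examined gene by gene: the change with LPS in fld cells minus the change with LPS in control cells. All 16 of 16 arrays entered, 4 in each of 4 groups, and the features described are the 14932 of 17465 (85.5%) that were well above background on all 16 arrays, 12384 of them with a RefSeq symbol. The cells were adherent peritoneal macrophages of male mice of the strain BALB/cByJ-Lpin1fld/J. Control mice were heterozygotes, so they carry 1 fld allele, and the other mice are labelled fld, the recessive fatty liver dystrophy mutation of Lpin1. Each genotype was left untreated or was given 100 ng/ml LPS for 5 h in medium without serum. The study asked how lipin-1 affects gene expression when TLR4 is stimulated. The mutation is carried in the germline, so every tissue of an fld mouse has it and not macrophages alone.

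LPS, a component of the outer membrane of Gram-negative bacteria, is sensed by TLR4 with MD-2 and CD14. The adaptor MyD88 leads from there to NF-kB and MAP kinases and to inflammatory cytokines, and the adaptor TRIF leads to IRF3, interferon beta and, through JAK-STAT signalling, to interferon-stimulated genes. Lipin-1 is a phosphatidate phosphatase that makes diacylglycerol on the way to triglyceride and phospholipid, and it also acts as a nuclear cofactor. In macrophages it is known for its part in lipid droplet formation and in signalling from Toll-like receptors.

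A level below is the log2 processed intensity minus the 75th percentile of its array, so 0 is the brightness of that percentile, and levels of different probes are not compared. A difference below 0 means that the change with LPS was lower in fld, whether as a smaller rise or a larger fall. The 75th percentile of the processed intensity was 189 to 627 over the arrays, and 58.7% to 65.4% of spots were well above background. Over features, arrays of the same group had correlations of 0.962 to 0.995; their median SD was 0.24 in fld with LPS against 0.17 to 0.18 in the other groups. A slide held the 4 arrays of 1 group and was scanned by itself, and the effects of slide, scan and group cannot be told apart. The study used 4 mice of each genotype, and the labels do not tie arrays to mice; were arrays of a group to share a mouse, their p-values would reflect technical spread.

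Some arrays stood apart. The mean of the 3 dimmer Lpin1 probes was -3.53 to -2.86 on the control arrays and -6.72 to -5.46 on fld arrays 1 to 3, but -1.62 and -3.03 on the untreated and the LPS array numbered 4, at or above the level of most control arrays, so cells are called labelled fld and directions rest on the labels. The fld LPS array numbered 4 also had the lowest 75th percentile (189), followed by number 2 of that group (251). All 8 general macrophage markers, Adgre1, Csf1r and Cd68 among them, were well above background on all 16 arrays. Their mean level was 5.45 to 5.58 and 4.88 to 5.14 in control without and with LPS, and 5.48 to 5.71 and 3.77 to 5.09 in fld, with array 4 of fld LPS at 3.77. Summed on the linear scale, they were 1000 to 1129 and 1117 to 1583 in control and 1149 to 1258 and 1363 to 1663 in fld, in units of each array's 75th percentile. In bulk RNA, fewer cells of a type and less RNA per cell cannot be told apart. Of the markers of other cells, 10 of 10 for B cells and 9 of 10 for mast cells, but only 1 of 7 for NK cells and 4 of 9 for neutrophils, were well above background on all arrays. The 3 erythroid or endothelial markers measured summed to 396 on fld LPS array 4, against 1.49, 4.48 and 1.49 on arrays 1 to 3. Their sums ran from 0.575 to 129 in control and from 6.06 to 182.5 in untreated fld. The mean of 8 T cell markers was also highest on fld LPS array 4 (-0.42). Where the fld arrays numbered 4 bear on a result, values without both of them are given.

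No feature passed the test for a genotype difference in the LPS response. With limma, Benjamini-Hochberg adjustment over all 17465 fitted features and a threshold of 0.05, 0 of 14932 (0%) were called, and the smallest adjusted p was 0.104. At an unadjusted p under 0.05 stood 1264 features (8.47%, where 5% would lie by definition if no feature differed), of which 788 (5.28%) were higher and 476 (3.19%) lower in fld. Scaling each array to its median instead of its 75th percentile moved the median difference of all features from -0.01 to -0.23 and the split to 371 higher and 1396 lower. The median SE of a difference was 0.22 (quartiles 0.17 and 0.30), which is what 4 arrays per group allow. So no gene below has a difference past the threshold, and the words rose and fell refer only to the response within a genotype.

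Features called in both genotypes nearly all went the same way with LPS. In control cells 2281 features (15.3%) rose and 2254 (15.1%) fell with LPS, and in fld cells 3215 (21.5%) rose and 2775 (18.6%) fell, or 1571 and 4186 in fld with median scaling. Across features, which are not independent replicates, the responses had a Pearson correlation of 0.863. Of those called in both, 3483 went in the same direction and 3 in opposite directions. The only opposite one with a gene symbol was Tmod3, an actin filament capping protein, at 0.27 in control and -0.27 in fld (difference -0.54, SE 0.13, limma adjusted p = 0.205). Among 1669 features that rose in both, 967 (57.9%) rose more in control, with medians of 0.72 and 0.72. Where the average rise was 2 or more, 91 of 153 (59.5%) rose more in control, with medians of 2.86 and 2.72. Among 1814 features that fell in both, 736 (40.6%) fell more in control. Over all features 51.6% had a difference below 0. Median scaling moved the median difference of all features from -0.01 to -0.23, so counts of which genotype changed more depend on the scaling.

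**Figure D1:**
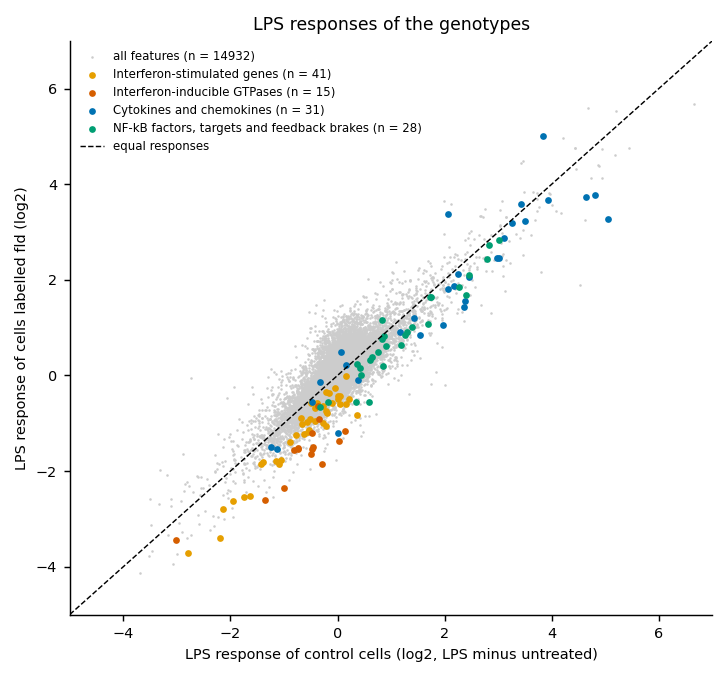
Change with LPS in control cells (horizontal axis, log2) against that in cells labelled fld (vertical axis, log2) for the 14932 features well above background on all 16 arrays, with interferon-stimulated genes, interferon-inducible GTPases, cytokines and NF-kB genes coloured and the dashed line at equal responses. Features lie along the diagonal of equal response (Pearson correlation 0.863), and the interferon-inducible GTPases lie below it.

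The gene group that lay farthest from equal responses was the interferon-inducible GTPases, guanylate-binding proteins (Gbp) and immunity-related GTPases (Irg) that act on vacuoles holding pathogens. Of 16 listed genes 15 were on the array, all of them well above background on every array. All 15 had a difference below 0, from -1.55 to -0.28 with a median of -1.05, while 7710 of 14932 features (51.6%) lay below 0 and the median of all was -0.01. Genes of a list were read on the same arrays and can move together. Counts below 0, here and in the lists that follow, are therefore not counts of independent cases. An unadjusted p under 0.05 was reached by 6 of the 15, all lower in fld (3.19% of all features), and none passed adjustment. In control cells 3 fell with LPS, a share near the 15.1% of all features, and none rose (median -0.48). In fld cells 14 fell, against 18.6% of all features (median -1.53). Without LPS the fld median lay 0.91 above control, with 1 gene called higher against 3.52% of all features (0.221% were called lower), and with LPS it lay -0.08 from control, with none called against 13.2% called higher and 0.797% lower among all. These contrasts share arrays: the difference in response is, by arithmetic, the genotype difference with LPS minus that without. Contrasts between genotypes depend on the scaling, since with median scaling 360 features were higher and 95 lower without LPS (main values 526 and 33), and 1294 higher and 6285 lower with LPS (1972 and 119).

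Promoters of 9 of these 15 genes are in the RefSeq table (build GRCm38.p6), and 4 are shown as examples, picked after their values were seen: 3 with an ISRE and 1 with neither motif searched. Each is the 250 bases before the start of the gene, 5′ to 3′ on the gene's strand. Capitals mark an interferon-stimulated response element (ISRE, GAAANNGAAA or TTTCNNTTTC, both strands) or a gamma-activated site (GAS, TTCNNNGAA), the recognition sequences of the interferon-activated factors. Gbp2 at chr3:142620413-142620662, Gbp7 at chr3:142530086-142530335 and Gbp5 at chr3:142496684-142496933 lie close together on the plus strand, and Ifi47 lies at chr11:49076337-49076586 on the plus strand.
Gbp2: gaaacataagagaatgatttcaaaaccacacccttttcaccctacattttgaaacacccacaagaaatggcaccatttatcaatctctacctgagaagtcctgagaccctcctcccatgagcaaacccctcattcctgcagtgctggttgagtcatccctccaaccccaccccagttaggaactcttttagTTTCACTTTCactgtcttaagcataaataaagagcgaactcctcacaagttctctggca
Gbp7: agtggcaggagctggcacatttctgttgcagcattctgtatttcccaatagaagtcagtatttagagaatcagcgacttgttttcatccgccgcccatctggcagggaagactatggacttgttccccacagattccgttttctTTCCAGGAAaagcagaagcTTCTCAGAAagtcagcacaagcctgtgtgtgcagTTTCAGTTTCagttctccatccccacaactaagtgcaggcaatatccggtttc
Gbp5: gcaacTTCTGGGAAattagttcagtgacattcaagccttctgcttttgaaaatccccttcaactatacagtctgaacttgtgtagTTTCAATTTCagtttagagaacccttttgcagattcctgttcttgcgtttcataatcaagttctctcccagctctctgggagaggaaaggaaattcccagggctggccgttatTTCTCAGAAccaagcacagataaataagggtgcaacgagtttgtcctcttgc
Ifi47: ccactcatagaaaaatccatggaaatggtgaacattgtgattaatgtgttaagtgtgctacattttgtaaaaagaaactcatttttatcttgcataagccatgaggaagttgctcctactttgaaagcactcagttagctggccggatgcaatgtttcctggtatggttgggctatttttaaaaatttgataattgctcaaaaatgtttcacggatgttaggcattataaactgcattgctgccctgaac
The ISRE of Gbp2 ends 49 bases before the start, that of Gbp7 43 bases and that of Gbp5 155 bases, and Gbp5 and Gbp7 also hold 2 GAS each. An ISRE was found in 8 of the 9 genes and a GAS in 5, against 974 (2.97%) and 2302 (7.01%) of all 32817 promoters of the same length. The units differ: a gene counted if any of its promoters held the motif, and 1 of the 2 promoters of Gbp3 did. The chromosome left out for the list stayed among all promoters. The list was made of genes known to be induced by interferon, so these counts are not a result of these arrays. Ifi47, with neither motif in its window, had a difference of -1.05. A match is a description of letters and not a site.

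Gbp2, a guanylate-binding protein recruited to pathogen vacuoles, stood at 4.50, 3.13, 3.50 and 3.43 on the untreated control arrays and 3.23, 2.57, 2.28 and 2.49 on the control arrays with LPS, against 5.33, 4.63, 4.79 and 4.93 on the untreated fld arrays and 1.79, 3.41, 2.08 and 2.99 on the fld arrays with LPS. Every untreated fld array lay above every untreated control array, and with LPS the fld arrays spanned the control range on both sides, with numbers 1 and 3 low and 2 and 4 high. It fell by 1.0 in control cells (limma adjusted p = 0.0452) and by 2.35 in fld cells (limma adjusted p = 0.00015), a difference of -1.35 (SE 0.50, adjusted p = 0.405).

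Gbp5, a guanylate-binding protein that promotes NLRP3 inflammasome activity, stood at 4.07, 2.50, 2.56 and 3.08 on the untreated control arrays and 3.57, 3.01, 1.82 and 2.65 on the control arrays with LPS, against 5.30, 4.33, 4.20 and 4.25 on the untreated fld arrays and 1.95, 3.53, 2.23 and 3.01 on the fld arrays with LPS. Again the untreated fld arrays were all above the untreated control arrays, and the LPS arrays overlapped. The change was -0.29 in control (not called) and -1.84 in fld (limma adjusted p = 0.0045), a difference of -1.55 (SE 0.62, adjusted p = 0.443). Gbp7 differed by -1.05 (SE 0.39) and Gbp3 by -1.40 (SE 0.50). These genes have close relatives in the family, so probes may read more than 1 of them.

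Array means of the 15 GTPases show where the spread lies. They were 3.22, 2.15, 2.12 and 2.40 in untreated control, 2.14, 1.87, 1.33 and 1.80 in control with LPS, 3.83, 3.06, 3.37 and 3.37 in untreated fld, and 0.83, 2.70, 1.12 and 2.37 in fld with LPS. The SD of these means was 0.92 in fld with LPS, against 0.32 to 0.51 in the other groups. The fld LPS group had a pair of low arrays (1 and 3) and a pair of high ones (2 and 4), and the high ones are those with the lowest 75th percentile. Whether that brightness has a part in the result was not tested. The 8 macrophage markers also lay below 0 in 7 cases, with a median of -0.36. It was -0.05 without fld LPS array 4, where their mean was lowest. Of 9 large peritoneal macrophage markers 6 lay below 0 (median -0.54, and -0.15 without that array). The part of these markers was not tested either. Without fld LPS array 4 the GTPase median was -1.09. The GTPase median was -1.08 without both fld arrays numbered 4, with 15 of 15 below 0. Leaving out fld LPS array 1 gave the smallest median, -0.68, with 14 of 15 below 0, and leaving out array 2 gave the lowest for a single array, -1.31. Without both arrays 2 and 4 of fld LPS, which takes out the high pair, it was -1.74. With quantile normalization it was -1.05, and with median scaling -1.27 where all features had -0.23.

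Other interferon-stimulated genes, which encode antiviral effectors and sensors, lay the same way by smaller amounts. All 41 measured on every array (of 43 listed) had a difference below 0, from -1.22 to -0.08 with a median of -0.52, and none reached an unadjusted p under 0.05. LPS lowered 6 of them in control (median -0.49), a share near that of all features (15.1%), and raised none. In fld it lowered 21 (median -0.95, with 18.6% of all features lowered) and raised none. The SD of their array means was 0.89 in fld with LPS, against 0.29 to 0.52 in the other groups. The fit shares the estimate of spread among groups, so calls within fld do not fully reflect that wider spread. The fld median lay 0.65 above control without LPS and 0.17 above it with LPS, none being called. Bst2, tetherin, which holds budding virus at the cell surface, differed by -0.83 (SE 0.42). Leaving out fld LPS array 1 gave a median of -0.26 with 36 of 41 below 0, and leaving out both fld arrays numbered 4 gave -0.76 with 41 of 41. Without arrays 2 and 4 of fld LPS, again the high pair, it was -1.21.

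The interferon-induced chemokine Cxcl10, which attracts T cells, stood at 4.84, 2.97, 1.73 and 2.82 on the untreated control arrays and 1.37, 1.28, -0.01 and 0.98 on the control arrays with LPS, against 5.80, 4.39, 4.67 and 5.42 on the untreated fld arrays and -0.55, 3.27, 0.06 and 3.87 on the fld arrays with LPS. It fell by 3.41 in fld (limma adjusted p = 0.0068), and the change of -2.19 in control did not pass (adjusted p = 0.0725). The difference was -1.22 with an SE of 1.23, and the fld LPS arrays again split, with 1 and 3 low and 2 and 4 high. It was -0.48 without fld LPS array 1, -0.69 without array 3 and -1.96 without array 4 of that group, -0.77 without untreated control array 3, and -1.84 without both fld arrays numbered 4. Ifnb1, which encodes interferon beta, had a difference of 0.00 (SE 0.94).

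**Figure D2:**
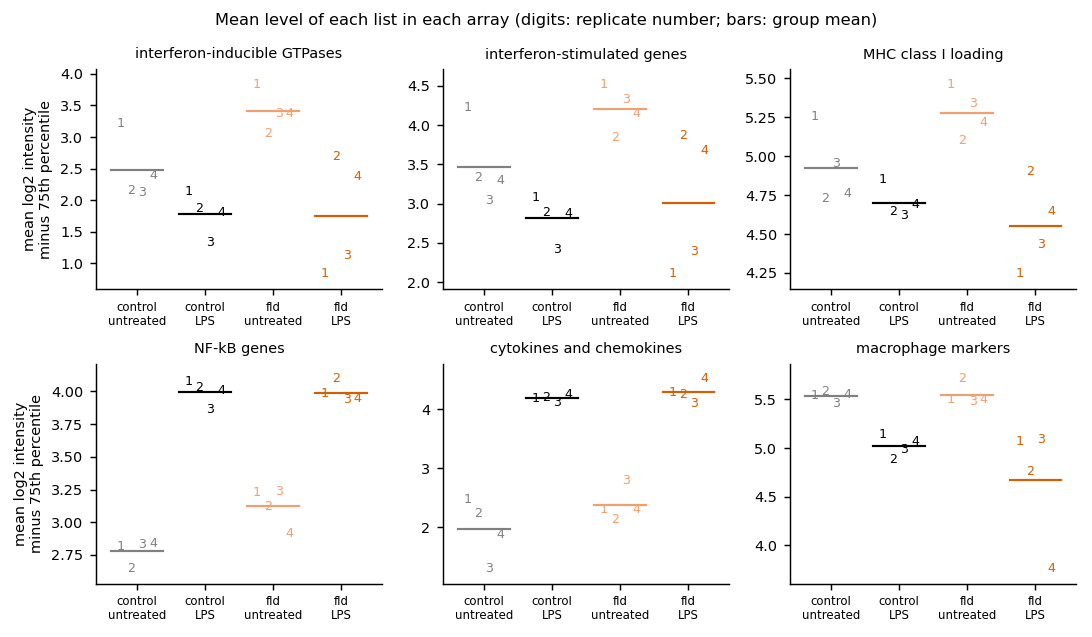
Mean log2 level of 6 gene groups on each of the 16 arrays (vertical axis; digits are array numbers, bars the mean of a group of 4 arrays). Among the interferon-inducible GTPases the untreated fld arrays lie at 3.06 to 3.83 and the fld LPS arrays at 0.83, 1.12, 2.37 and 2.70, while the NF-kB group separates untreated from LPS arrays in both genotypes.

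Genes of MHC class I loading and the immunoproteasome, which cut and load peptides for display to CD8 T cells, also lay below 0 in 14 of 14 cases (median -0.51, range -0.92 to -0.05). Of these, 6 reached an unadjusted p under 0.05, all lower in fld, against 3.19% of all features, and none passed adjustment. LPS lowered 1 of the 14 in control and 11 in fld, against 15.1% and 18.6% of all features. Without both fld arrays numbered 4 the median was -0.63, with 14 of 14 below 0. Tapbpl, the peptide editor TAPBPR, stood at 2.75, 2.32, 2.42 and 2.66 on the untreated control arrays and 2.38, 2.30, 2.0 and 2.09 on the control arrays with LPS, against 3.44, 3.07, 2.89 and 3.06 on the untreated fld arrays and 1.55, 2.26, 1.55 and 2.05 on the fld arrays with LPS. With LPS the arrays overlapped between genotypes, while untreated fld arrays were all above control. The change was -0.34 in control (not called) and -1.26 in fld (limma adjusted p = 7.3e-05), a difference of -0.92 (SE 0.25, adjusted p = 0.24). Erap1, which trims peptides, differed by -0.63 (SE 0.17), the transporter subunit Tap2 by -0.70 (SE 0.23) and the immunoproteasome subunit Psmb10 by -0.79 (SE 0.28).

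MHC class II and costimulatory genes, which present to CD4 T cells, had a median of -0.21 with 12 of 13 below 0. Among them 3 rose and none fell in control, and 2 rose and 2 fell in fld, counts near or below those of all features (15.3% and 15.1%, 21.5% and 18.6%). Without both fld arrays numbered 4, 10 of 13 were below 0 (median -0.29). Icosl, the ligand of the costimulatory receptor ICOS, fell by 1.43 in fld (limma adjusted p = 0.00073) and stood at -0.20 in control, which did not pass (difference -1.23, SE 0.37). Cd40, the receptor for T cell help, rose by 1.11 in control (adjusted p = 0.0067) and stood at 0.23 in fld, which did not pass (difference -0.88, SE 0.39).

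At the receptor and its adaptors the group as a whole stood near all features. Of 30 TLR4 pathway components 18 lay below 0 (median -0.08), with 2 at an unadjusted p under 0.05, both lower (3.19% of all features). They are Myd88 and Irak2. Myd88, the adaptor that carries the signal from TLR4 to IRAK kinases, stood at 4.24, 4.12, 4.12 and 4.43 on the untreated control arrays and 5.24, 5.11, 4.88 and 5.00 on the control arrays with LPS, against 4.91, 4.71, 4.51 and 4.50 on the untreated fld arrays and 4.93, 4.86, 4.73 and 4.34 on the fld arrays with LPS. Control arrays with LPS were all above untreated ones, whereas the fld arrays overlapped between treatments. Myd88 rose by 0.83 in control (limma adjusted p = 0.00042) and changed by 0.06 in fld, which did not pass. The difference was -0.77 (SE 0.20, adjusted p = 0.23), and -0.70 without both fld arrays numbered 4. Irak2, a kinase that sustains the signal, differed by -0.60 (SE 0.26) and Tlr4 by -0.65 (SE 0.31).

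NF-kB factors, targets and feedback inhibitors lay below 0 in 27 of 28 cases (median -0.34), with 7 at an unadjusted p under 0.05, all lower in fld (3.19% of all features). With LPS 23 rose in control and 20 in fld, against 15.3% and 21.5% of all features, and 1 and 2 fell, against 15.1% and 18.6%. Array means ran from 2.65 to 2.84 in untreated control and from 2.92 to 3.23 in untreated fld, and from 3.86 to 4.07 and 3.94 to 4.10 with LPS. So the genotypes differed in the untreated means without overlap, and overlapped with LPS. Without both fld arrays numbered 4 the median was -0.37, again with 27 below 0. Nfkb1, the precursor of the p50 subunit, stood at 3.30, 3.16, 3.28 and 3.47 on the untreated control arrays and 4.65, 4.47, 4.29 and 4.58 on the control arrays with LPS, against 3.72, 3.64, 3.79 and 3.61 on the untreated fld arrays and 4.21, 4.35, 4.32 and 4.45 on the fld arrays with LPS. Untreated fld arrays all lay above control, and with LPS the groups overlapped. It rose by 1.19 in control and 0.64 in fld (limma adjusted p = 8.7e-07 and 0.00021), a difference of -0.55 (SE 0.14, adjusted p = 0.23). Its 3 other probes gave -0.17, -0.08 and -0.04, so the probes of Nfkb1 disagree in size. Icam1, an adhesion molecule, differed by -1.14 (SE 0.37), with its other probe at -1.13. The deubiquitinase Cyld differed by -0.34 (SE 0.14) and the ubiquitin ligase Birc2 by -0.37 (SE 0.16), but their probes disagree in sign: the others of Cyld gave -0.50 and 0.14, and that of Birc2 0.09.

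**Figure D3:**
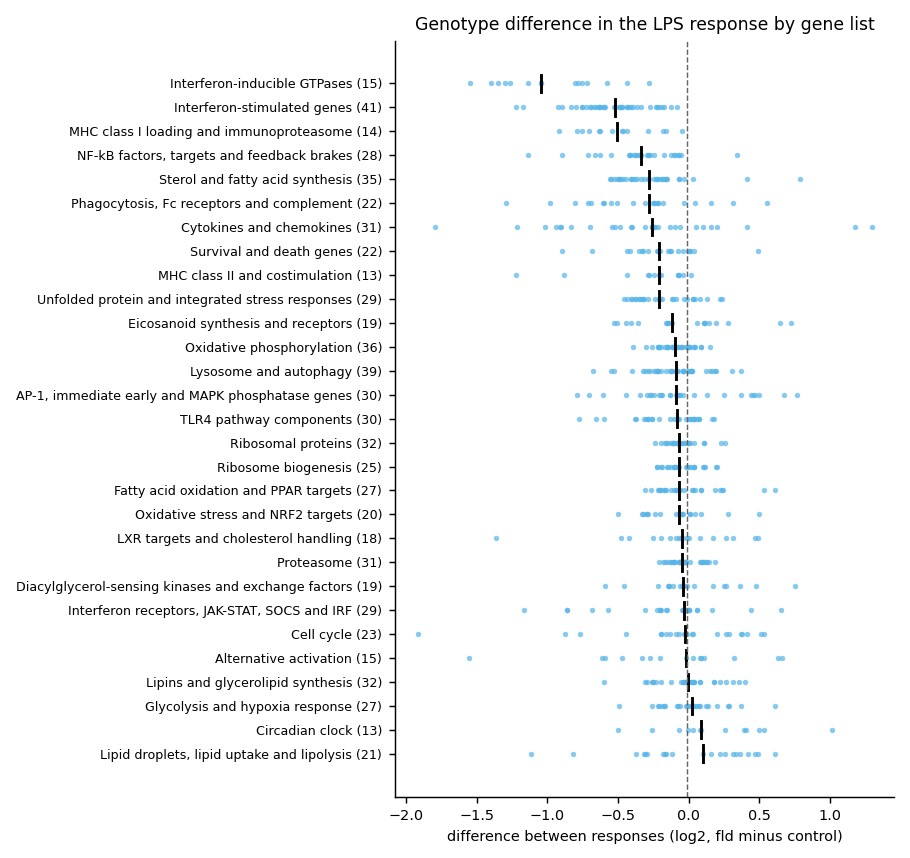
Genotype difference in the LPS response (horizontal axis, log2) for the members of each gene group, 1 point a gene, with the median of each group marked. The medians run from -1.05 in the interferon-inducible GTPases to 0.10 in lipid droplet, uptake and lipolysis genes, and the median of all 14932 features is -0.01.

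Cytokines and chemokines lay below 0 in 24 of 31 cases (median -0.26; 39 were listed and 38 were on the array), and -0.46 with 24 below 0 without both fld arrays numbered 4. At an unadjusted p under 0.05 stood 5 lower (3.19% of all features) and 1 higher, the latter below the 5.28% of all features. With LPS 24 rose and 2 fell in control (15.3% and 15.1% of all features), and 23 rose and 3 fell in fld (21.5% and 18.6%). Il6, a pyrogenic cytokine that drives the acute phase, stood at 2.69, 2.29, -0.60 and 2.40 on the untreated control arrays and 7.16, 6.78, 6.22 and 6.86 on the control arrays with LPS, against 3.50, 3.17, 3.97 and 3.53 on the untreated fld arrays and 6.69, 6.60, 6.62 and 7.31 on the fld arrays with LPS. Every fld untreated array was above every control one, and the groups overlapped with LPS. Il6 rose by 5.06 in control and 3.26 in fld (limma adjusted p = 7.1e-06 and 0.00029), a difference of -1.80 (SE 0.75, adjusted p = 0.468). Untreated control array 3 was far below its group, and without it the difference was -1.03. Mast cell markers, 9 of 10 of them well above background on all arrays, were also lowest there. Their mean was -0.11 on untreated control array 3 against 1.93 to 2.18 on the other 3. Among untreated fld arrays it was highest on array 3 (2.58), where Il6 was highest too. On untreated fld arrays 1, 2 and 4 it was 0.82, 1.60 and 0.87, with Il6 at 3.50, 3.17 and 3.53, so the order differed. The summed level of the mast cell markers was 19.4 to 99.0 and 167 to 234 in control without and with LPS, and 44.7 to 149 and 124 to 180 in fld. Their part in the result was not tested.

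Tnf, an early inflammatory cytokine, stood at 2.07, 1.08, 1.71 and 1.39 on the untreated control arrays and 3.03, 3.10, 3.23 and 3.06 on the control arrays with LPS, against 2.52, 1.93, 2.03 and 1.87 on the untreated fld arrays and 3.04, 2.63, 2.82 and 3.23 on the fld arrays with LPS. LPS arrays were all above untreated ones in both genotypes, and the genotypes overlapped under each treatment. It rose by 1.54 in control and by 0.84 in fld (limma adjusted p = 4e-05 and 0.004), a difference of -0.70 (SE 0.28, adjusted p = 0.442). Il10, the anti-inflammatory cytokine, stood at -0.85, -1.94, -1.74 and -2.11 on the untreated control arrays and 0.20, 0.50, 0.53 and 0.39 on the control arrays with LPS, against -2.28, -2.62, -1.38 and -2.0 on the untreated fld arrays and 0.95, 1.50, 0.42 and 2.33 on the fld arrays with LPS. Here the LPS arrays of fld reached higher than those of control, with 1 of 4 inside the control range. It rose by 2.07 in control and 3.37 in fld (limma adjusted p = 0.00061 and 8.5e-06), the 1 cytokine of the list higher at an unadjusted p under 0.05, with a difference of 1.30 (SE 0.52, adjusted p = 0.439); without both fld arrays numbered 4 it was 0.98.

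Csf1, the growth factor of macrophages, stood at 2.74, 2.28, 2.63 and 2.69 on the untreated control arrays and 2.78, 2.69, 2.51 and 2.40 on the control arrays with LPS, against 3.21, 2.71, 3.06 and 3.47 on the untreated fld arrays and 1.40, 2.40, 1.60 and 2.22 on the fld arrays with LPS. With LPS fld arrays 1, 3 and 4 lay below every control array, and array 2 met the lowest of them. Csf1 fell by 1.21 in fld (limma adjusted p = 0.00053) and changed by 0.01 in control, a difference of -1.22 (SE 0.30, adjusted p = 0.204). Il1a, an alarmin of the interleukin-1 family, rose by 4.80 in control and 3.78 in fld (difference -1.02, SE 0.39), and the chemokine Cxcl16 differed by -0.49 (SE 0.19). Il1b, Ptgs2, Ccl2 and Cxcl1 rose in both, with differences of -0.40 (SE 0.27), -0.45 (SE 0.54), -0.52 (SE 0.90) and -0.22 (SE 0.34). Without untreated control array 3 that of Ccl2 was 0.25, and without untreated fld array 3 that of Cxcl1 was 0.09, so neither sign is settled. Ccl2 was also lowest on untreated control array 3 (1.18), the array lowest in mast cell markers. Il1rn, the interleukin-1 receptor antagonist, differed by -0.06 (SE 0.58).

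**Figure D4:**
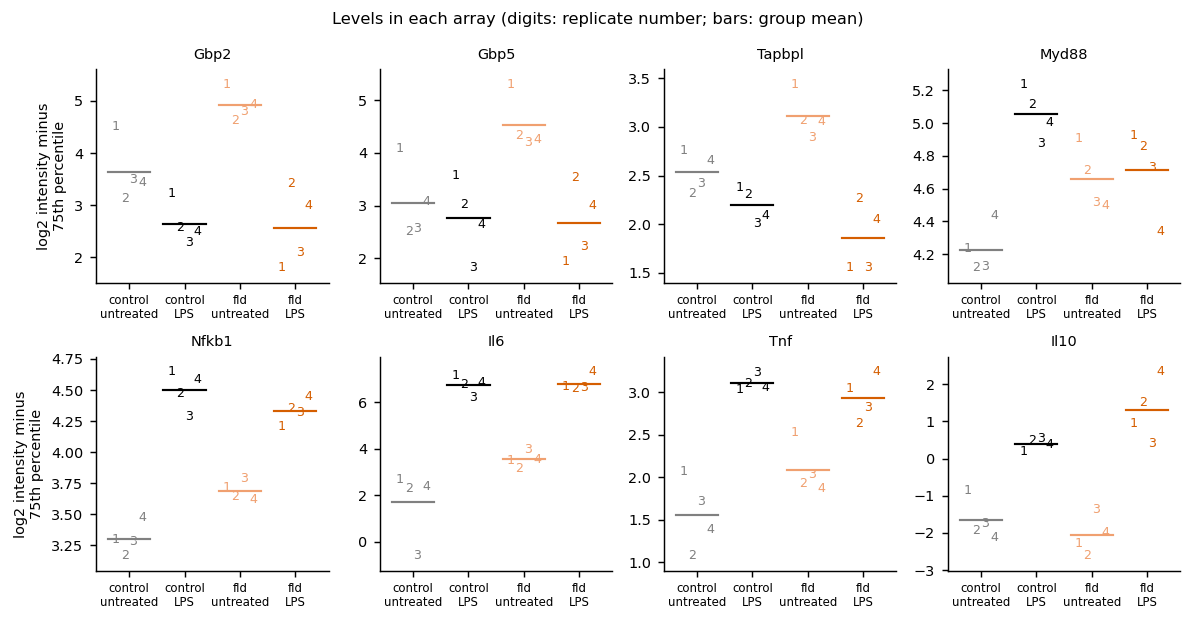
Log2 level of 8 genes on each of the 16 arrays (vertical axis; digits are array numbers, a bar marks the mean of 4). Il6 and Tnf rise in both genotypes, Gbp2, Gbp5 and Tapbpl sit higher in untreated fld than in untreated control, and Il10 reaches 0.42 to 2.33 in fld with LPS against 0.20 to 0.53 in control.

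Genes that could not be followed on all arrays are given as bounds. Nos2 makes nitric oxide in activated macrophages; it was well above background on 0 of 4 untreated control arrays, and its rise was at least 6.78-fold in control; in fld, where 3 of 4 untreated arrays were well above background, it was 3.19-fold. Il12b, the p40 subunit of interleukin-12, was well above background on no array without LPS, and it rose at least 3.42-fold in control (4 of 4 LPS arrays). In fld 3 of 4 LPS arrays were well above background. The value there was 2.91-fold, which is not a strict bound because the LPS mean holds a dim array. A bound sets the bright group against the higher of the dimmest well-measured signal and the dim probe's own on each array. No comparison between bounds is made.

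Signalling downstream of interferon and cytokine receptors was mixed. Of 29 genes of interferon receptors, JAK-STAT, SOCS and IRF factors 21 lay below 0 (median -0.03), with 4 lower and 1 higher at an unadjusted p under 0.05 (3.19% and 5.28% of all features). Socs1, the inhibitor of JAK kinases, stood at 4.04, 3.23, 2.82 and 3.59 on the untreated control arrays and 4.71, 4.29, 4.79 and 4.61 on the control arrays with LPS, against 4.50, 3.77, 4.61 and 4.56 on the untreated fld arrays and 4.17, 4.44, 4.64 and 4.25 on the fld arrays with LPS. It rose by 1.18 in control (limma adjusted p = 0.0016) and changed by 0.02 in fld, a difference of -1.17 (SE 0.34, adjusted p = 0.267), with the fld arrays overlapping between treatments. Irf1 fell by 0.84 in control and by 1.53 in fld (difference -0.69, SE 0.25), and Jak2 rose by 2.11 and 1.54 (difference -0.57, SE 0.22). Il6ra, the receptor of interleukin-6, fell by 0.86 in control and stood at -0.20 in fld, which did not pass (difference 0.65, SE 0.25). Of 30 genes of AP-1, the immediate early response and MAPK phosphatases, 20 lay below 0 (median -0.09, and -0.23 without both fld arrays numbered 4 or -0.22 without that of fld LPS alone), Dusp16 at -0.71 (SE 0.26) and Maff at -0.79 (SE 0.31) among them, and Zfp36, which degrades cytokine mRNA, at 0.44 (SE 0.17) on the other side. The probes of Klf2, a transcription factor of quiescent cells, disagreed, at 0.68 (SE 0.23) and -0.09. Those of Dusp16 differed in size, the others giving -0.22 and -0.41.

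Lipid genes, the pathway of lipin-1 itself, mostly stood at the level of all features, apart from sterol and fatty acid synthesis genes. Of 32 lipin and glycerolipid synthesis genes 17 lay below 0 (median -0.01), with none lower and 1 higher, Ptdss2, at an unadjusted p under 0.05, where 3.19% and 5.28% of all features stood. The brightest Lpin1 probe differed by 0.40 (SE 0.44), Lpin2 by -0.03 (SE 0.23) and Dgat2, of the last step of triglyceride synthesis, by -0.01 (SE 0.27). Of 19 diacylglycerol-sensing kinases and exchange factors, 12 lay below 0 (median -0.04), Prkcq, a protein kinase C, at 0.75 (SE 0.24) and Prkce at -0.46 (SE 0.21). The other probe of Prkce gave -0.10. Lipid droplet, uptake and lipolysis genes lay below 0 in 10 of 21 cases (median 0.10); Acsl1, which activates fatty acids, rose by 0.94 in control and stood at -0.18 in fld, which did not pass (difference -1.12, SE 0.34), and Plin2, the droplet coat protein, differed by 0.49 (SE 0.33). Sterol and fatty acid synthesis genes, targets of SREBP, lay below 0 in 32 of 35 cases with a median of -0.28 and none at an unadjusted p under 0.05.

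Of the other groups, several had medians near that of all features (-0.01): -0.05 in 31 proteasome, -0.07 in 32 ribosomal protein, -0.09 in 36 oxidative phosphorylation, -0.09 in 39 lysosome and autophagy, 0.02 in 27 glycolysis and hypoxia and -0.03 in 23 cell cycle genes. Farther off were genes of the unfolded protein and stress responses, which handle misfolded protein (median -0.21, 22 of 29 below 0; -0.24 and 24 of 29 without both fld arrays numbered 4), and genes of survival and death (median -0.21, 18 of 22; -0.16 and 17 of 22). Phagocytosis and complement genes had a median of -0.28 (18 of 22 below 0), and -0.04 (13 of 22) without both fld arrays numbered 4. Axl, a receptor for dying cells, fell by 1.52 in fld (limma adjusted p = 0.0016) and stood at -0.23 in control (difference -1.29, SE 0.44). Clec10a, a lectin of alternative activation, fell by 1.87 in fld and stood at -0.31 in control (difference -1.55, SE 0.53, or -1.13 without both fld arrays numbered 4). Mki67, a proliferation marker, differed by -1.92 (SE 0.70), and by -1.26 without fld LPS array 4. Of the 13 clock genes Dbp, an output of the clock, differed by 1.02 (SE 0.28).

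Features were also ranked by p, and none of those listed here passed. Some passed under other settings: Olfr638 and Efna5 with quantile normalization, median scaling and the value table, Olfr638, Snx32 and Msrb3 with array quality weights, and Snx32, Tgm3 and A230072E10Rik with quantile normalization. A dimmer probe of Efna5, well above background on 13 arrays, gave 0.28, and one of Snx32, on 11 arrays, 0.06. The 10 lower in fld with the smallest p were Olfr638 (-1.72, SE 0.25, adjusted p = 0.104), Efna5 (-1.46), Tcea1 (-0.79), Shisa3 (-2.64), Agrn (-0.91), 2610002M06Rik (-0.55), Tsc22d1 (-1.03), Tmem128 (-0.50), Olfr435 (-0.83) and Mpc1 (-0.53). Those higher were Snx32 (0.77, SE 0.13, adjusted p = 0.111), Msrb3 (1.10), Tgm3 (0.94), Faah (0.98), A230072E10Rik (1.04), Gnb5 (0.76), Olfr740 (1.18), Cd300lb (1.36) and Scd3 (1.28). Olfactory receptor genes belong to a large family of related genes, and their probes are uncertain. Shisa3, a membrane protein of the endoplasmic reticulum, stood at -3.79, -4.16, -4.09 and -4.21 on the untreated control arrays and 1.46, 0.19, -0.10 and 0.33 on the control arrays with LPS, against -2.08, -3.63, -1.87 and -3.58 on the untreated fld arrays and -0.70, -0.88, -0.82 and -1.22 on the fld arrays with LPS. The LPS fld arrays all lay below the lowest LPS control array, and it rose by 4.53 in control and 1.89 in fld. Scd3, a stearoyl-CoA desaturase, stood at -0.26, -0.94, -1.17 and -0.42 on the untreated control arrays and 0.57, 0.40, 0.00 and 0.62 on the control arrays with LPS, against -1.32, -1.35, -1.40 and -1.16 on the untreated fld arrays and 1.20, 0.86, 1.10 and 1.10 on the fld arrays with LPS. Untreated arrays of the genotypes overlapped at one end, LPS fld arrays lay all above LPS control arrays, with a rise of 1.09 in control and 2.37 in fld.

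How bright a feature was went with its difference. Over 8 classes of equal size by mean level, from dimmest to brightest, the median difference was 0.30, 0.15, 0.07, -0.01, -0.02, -0.06, -0.09 and -0.11. In the dimmest class 15.2% were higher and 0.964% lower at an unadjusted p under 0.05, and in the brightest 0.643% and 5.09%. With quantile normalization the dimmest class had a median of 0.12 and the brightest 0.00, and without fld LPS array 4 these were 0.14 and -0.09. Relative to the median of its own level class, the GTPase median was -0.96 (15 of 15 below), the interferon-stimulated gene median -0.42 (40 of 41), the MHC class I median -0.43 and the NF-kB median -0.27. That of sterol and fatty acid synthesis genes was -0.23 (32 of 35), whereas the TLR4 components lay at 0.01 and the JAK-STAT group at 0.04. The part of brightness in the differences of single genes was not tested.

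**Figure D5:**
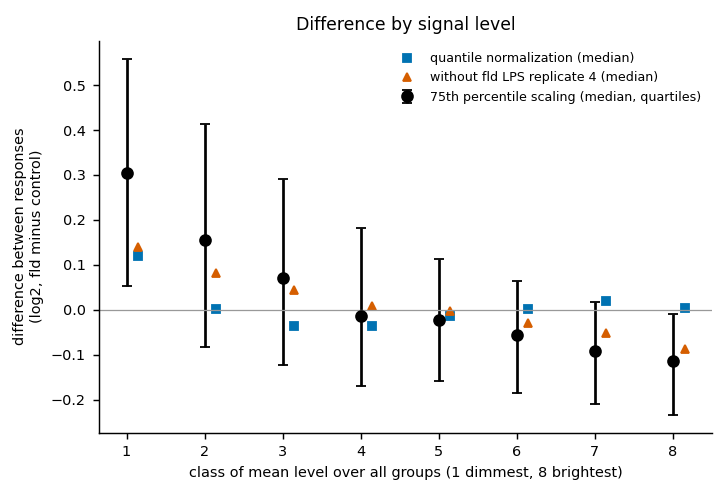
Median genotype difference in the LPS response (vertical axis, log2, bars the quartiles) in 8 classes of equal size by mean level (horizontal axis, dimmest to brightest), with the same medians after quantile normalization and without fld LPS array 4. The medians fall from 0.30 to -0.11, and from 0.12 to 0.00 after quantile normalization.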

How the data were processed

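RNA of 16 samples was amplified, labelled with Cy3 and hybridised to single-colour arrays of design 014868, per the labels and file headers. The deposited scanner files hold the processed intensity of each spot, background-subtracted and read by Agilent Feature Extraction 9.5.1.1, per the file headers. A value table that the authors deposited holds the same values as a signal divided by the median of each array. The members and the gene lists were chosen with earlier results of these data known.

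Levels are log2 processed intensity less the 75th percentile of the 43379 non-control spots of the same array, with outlier-flagged spots left out. Probes well above background on all 4 arrays of a group were kept (25533 of 41174), and the brightest probe stood for a gene. Names came through RefSeq for 22951 probes by accession, 6659 by symbol and 3109 by synonym, and 8455 kept the name in the files. The 29 lists held 787 genes, 779 on the array and 736 measured on all 16 arrays.

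The model was fitted by limma 3.58.1 (R 4.3.3) with a mean for each group, eBayes and Benjamini-Hochberg adjustment over all 17465 features at 0.05. For each feature the groups shared an estimate of the spread, and every p is two-sided. The fit was tested on simulated data. By rule the text names a fixed set of inflammatory and lipid genes, called features and called list members; with 0 called, the 10 smallest p in each direction stand in for them. List members named beyond that rule are those with the smallest p of their list, up to 4 a list, and Tmod3 and Ifi47; they were chosen after their values were seen. A few features that the rule selects are counted but not reported here by name. The other settings tried changed the scaling, background, filter, probe rule, array weights, replicate block and arrays included. Whether arrays with the same number share a mouse across treatments is not known, and the model took them as unpaired. Of 8 correlations of their deviations 4 were over 0.1. They were 0.15, 0.14, 0.29 and 0.09 in control and -0.11, -0.15, -0.1 and 0.23 in fld, which does not settle it. The number of arrays limits the precision.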

Additional observations from a re-analysis of the deposited data

Results flagged for a closer look

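In groups of 4 arrays, 9 of the 192 examined had an array far from the rest of its group by Dixon's criterion, and chance gives about 1 in 20.

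Il6 stood at -0.60 on untreated control array 3, where the other 3 had 2.29 to 2.69, and at 7.31 on fld LPS array 4 against 6.6 to 6.69. Gbp5 stood at 5.30 on untreated fld array 1 against 4.20 to 4.33. On fld LPS array 4, A230072E10Rik stood at -0.81 against -1.25 to -1.19 and Cd300lb at -2.12 against -2.90 to -2.84. Olfr435 stood at -3.92 on control LPS array 3 against -3.32 to -3.23. The mean of the NF-kB genes was 2.65 on untreated control array 2 against 2.82 to 2.84, and that of the macrophage markers 5.71 on untreated fld array 2 against 5.48 to 5.50. The mean of the 3 dimmer Lpin1 probes was -1.62 on untreated fld array 4 against -6.72 to -6.07.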

How the results depend on the processing

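Over 29 other settings, 2880 of 2929 recomputed gene differences kept their direction and 49, in 6 genes, reversed. Most of the 101 genes recomputed had been picked for a small p, which by itself favours a kept direction. All 6 genes that reversed are of the fixed set, which was not picked by p. Counts of calls moved more. Features called for the genotype difference in the LPS response numbered 8 with quantile normalization, 2 with median scaling, 2 with the deposited value table, 1 with the replicate block, 6 with array quality weights and 0 to 1 with 1 array left out. At an unadjusted p under 0.05, 371 were higher and 1396 lower with median scaling and with the value table, 21 and 37 with normexp background, 816 lower with array quality weights, 753 lower without the fld LPS arrays numbered 2 and 4, and 582 to 991 higher and 339 to 562 lower with 1 array left out. With the replicate block they were 992 and 496.

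Within control cells normexp gave 450 higher and 617 lower. In fld cells median scaling and the value table gave 1571 and 4186, and normexp 522 and 794. Without LPS, features higher in fld numbered 287 (quantile), 0 (normexp), 36 (normexp with extreme local backgrounds reset), 1482 (weights), 1078 (without fld LPS arrays 2 and 4) and 187 to 1040 with 1 array left out; lower were 95 (median scaling, value table), 0 (normexp), 5 (reset), 16 (no filter on dim probes), 156 (weights), 86 (without fld LPS arrays 2 and 4), and 7 to 72 with 1 array left out. With LPS, higher were 1294 (median scaling, value table), 0 (normexp) and 1081 (without fld LPS arrays 2 and 4), and lower 417 (quantile), 6285 (median scaling, value table), 0 (normexp), 69 (no filter), 66 (without both fld arrays numbered 4) and 41 to 198 with 1 array left out. The cause of these shifts was not tested. The settings resetting extreme backgrounds and leaving out fld LPS arrays 2 and 4, the dimmest by 75th percentile, were chosen after seeing the data; the latter arrays also had the higher interferon-stimulated levels, so leaving them out lowers the fld LPS mean.

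Reversals were Il1rn (0.016 quantile, 0.053 normexp, 0.080 weights; -0.39 to 0.46 with 1 array left out), Ifnb1 (-0.21 quantile, -0.22 median scaling and value table, -0.13 normexp, -0.013 reset, -0.54 weights, -0.33 without both fld arrays numbered 4, -0.97 without fld LPS arrays 2 and 4; -0.50 to 0.41 with 1 left out), Lpin2 (0.069 quantile, 0.080 normexp, 0.39 median over probes, 0.14 weights, 0.11 without both fld arrays numbered 4, 0.31 without fld LPS arrays 2 and 4; -0.17 to 0.14 with 1 left out) and Dgat2 (0.017 quantile, 0.056 normexp, 0.027 weights, 0.29 without both fld arrays numbered 4, 0.14 without fld LPS arrays 2 and 4; -0.14 to 0.20 with 1 left out). With 1 array left out Ccl2 ran from -0.90 to 0.25 and Cxcl1 from -0.44 to 0.094. With 1 array left out, the 1 call was Olfr638, without control LPS array 3 or fld LPS array 1 and in no other such fit.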
